A study of Rattus norvegicus with 12 samples.

Results

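Cytokines and chemokines are secreted signals of immune and tissue cells, and 87 of the 10411 genes named on the array code for them or for their receptors. They were taken by symbol: names that start with Il, Ccr or Csf and a digit, or with Ccl, Cxcl, Cxcr, Tnfsf or Tnfrsf, without Cxcl12, Cxcl14, Cxcr4 and Csf1r. Genes of the same families that carry other symbols, such as Tnf, Cd40 or Pf4, are therefore not among the 87. Each gene was represented by the probe set with the highest mean log2 signal over all animals. RNA of whole lung was hybridized to Affymetrix RAE 230A arrays, 1 array for each of 12 male Wistar rats. The 7 diabetic animals received streptozotocin, a compound toxic to pancreatic beta cells, at 8 weeks of age and had been diabetic for 4 weeks. The 5 normal animals received buffer at the same age, and both groups were 12 weeks old at study. No animals were pooled, and the samples hold all cell types of the lung, so fewer cells of a type and less RNA per cell cannot be told apart in any value below.

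Interleukins, chemokines, ligands of the TNF superfamily and colony stimulating factors act at short range through receptors on neighbouring or arriving cells. Chemokines guide leukocytes along gradients: those of the CXC class with a glutamate-leucine-arginine motif, such as Cxcl1, Cxcl2, Cxcl3 and Cxcl6, act mainly on neutrophils, while CC chemokines act on monocytes, eosinophils and lymphocytes. Many of these genes are silent or weak in resting tissue and are induced through NF-kB, whereas others, such as the alarmin Il33 in epithelial and endothelial nuclei, are stored in healthy barrier organs.

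Of the 87 members, 36 lay above a mean signal of 170, and 51 lay below it. The signal is the MAS5 intensity of a probe set, scaled by the authors to a common trimmed mean, and 170 is the signal under which the dimmest 40% of all probe sets fell. It also depends on how well the probes of a set bind, so signals of different genes are given as signals and not as amounts of RNA. Of all genes named on the array, 67.6% had a probe set above this level, against 41.4% of the members. All 12 animals were above the level for 26 members and below it for 41. The nearest genes above the level were Cxcr1 (171), Cxcr3 (185) and Tnfrsf21 (186), and the nearest below it were Cxcl9 (161), Tnfrsf12a (156) and Il7 (137).

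**Figure D1:**
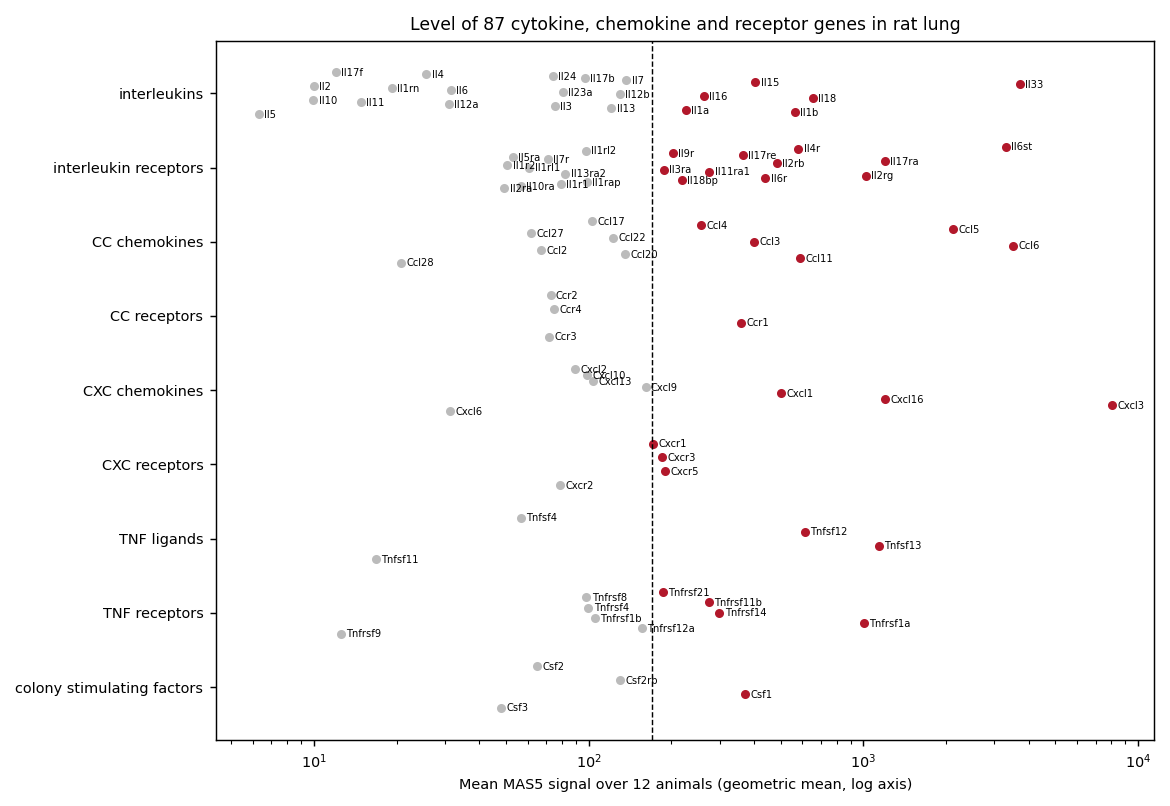
Mean MAS5 signal over 12 animals (geometric mean, log axis) of each of the 87 members, 1 row per role, with the vertical offset within a row used only to separate names. The 36 members in red lie above 170 (dashed line), from Cxcr1 at 171 to Cxcl3 at 8021, and the 51 in grey lie below it, down to Il5 at 6.29.

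Among the interleukins 6 of 22 were above the level. They were Il33 (mean signal 3703), the inflammasome product Il18 (654), Il1b (562), Il15, which sustains natural killer and memory T cells (404), the CD4 ligand Il16 (263) and Il1a (226). Several cytokines of T cells had low signals. Il2, the T cell growth factor, had signals of 7.9 to 13.4 in diabetic and 7.2 to 17.3 in normal lung. The mean signal was 25.6 for Il4, 6.29 for the eosinophil factor Il5, 9.92 for the suppressive cytokine Il10 and 12.0 for Il17f. Il6, the inducer of the acute phase response, had 31.4, and Il13 had 121. Among the interleukin receptors and binding proteins 11 of 21 were above the level. Il6st, which codes for the shared signal chain gp130 of the Il6 family, had 3293. Il17ra had 1196, and Il2rg, the common gamma chain of several lymphocyte receptors, had 1021. The chain shared by the receptors of Il4 and Il13, Il4r, had 579.9, and the Il15 receptor chain Il2rb had 485. The receptors that mark activated T cells and type 2 lymphoid cells, Il2ra (49.2) and Il1rl1 (60.7), were below it, as was Il7r (70.8).

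Of the CC chemokines 5 of 11 were above the level: Ccl6 (3498), the T cell and monocyte attractant Ccl5 (2124), the eosinophil attractant eotaxin Ccl11 (590.1), Ccl3 (399) and Ccl4 (257). Ccl2, the main attractant of monocytes in inflammation, had 67.2, with 15.3 to 201.1 in diabetic and 26.9 to 94.3 in normal lung. A single CC receptor of 4 was above it, Ccr1 (358), which binds Ccl3 and Ccl5. Ccr2, the receptor of Ccl2, had 72.6, Ccr3, the eotaxin receptor, had 71.8, and Ccr4 had 75.0. Of the CXC chemokines 3 of 8 were above it: Cxcl3 (8021, on a probe set far brighter than the other 3 that name this gene), the membrane-bound Cxcl16 (1199) and Cxcl1 (503). The interferon-induced members Cxcl9 (161) and Cxcl10 (98.6) were below it. Of the CXC receptors Cxcr1, Cxcr3 and the B cell receptor Cxcr5 (190.3) were just above it, and Cxcr2, the other neutrophil receptor, had 78.9.

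The 100 bases before the start of 4 members are shown, chosen after their values were seen, because they hold the same kind of NF-kB site while the signals of these genes lie on either side of the level. They come from the RefSeq promoter table of build GRCr8, 5′ to 3′, with the match to the NF-kB consensus in capitals (overlapping matches on both strands are joined).
Cxcl1 (chr14:17479322-17479421, minus strand): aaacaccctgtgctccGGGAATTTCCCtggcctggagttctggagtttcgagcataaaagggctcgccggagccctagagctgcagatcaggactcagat
Cxcl2 (chr14:17467256-17467355, minus strand): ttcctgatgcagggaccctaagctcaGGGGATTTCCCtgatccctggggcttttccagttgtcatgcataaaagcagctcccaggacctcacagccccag
Cxcl6 (chr14:17596418-17596517, minus strand): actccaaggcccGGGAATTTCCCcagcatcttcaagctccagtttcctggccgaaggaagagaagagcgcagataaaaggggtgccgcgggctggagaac
Il6 (chr4:5894576-5894675, minus strand): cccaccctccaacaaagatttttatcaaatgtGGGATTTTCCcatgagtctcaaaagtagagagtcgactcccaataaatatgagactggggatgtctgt
Cxcl1, at a mean signal of 503, lay above the level, while Cxcl2 (89.0), Cxcl6 (31.3) and Il6 (31.4) lay below it. The match began 84 bases before the start in Cxcl1, 74 in Cxcl2, 88 in Cxcl6 and 68 in Il6. By gene ID 62 of the 87 members were in the table. In the 250 bases before the start, 10 of the 62 (16.1%) had a match on either strand, against 3.82% of all 27457 genes of the table. The other 6 were Ccl20, Cxcl10, Ccr3, Il1r1, Il1rap and Tnfrsf8. Of the 36 members above the level the table held 22, of which 1, Cxcl1, had a match. Of the 51 below it the table held 40, of which 9 had a match. A larger part of the members above the level was missing, so these counts do not compare the classes. A match describes letters in this window and shows no binding.

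Of the TNF ligands Tnfsf13 (1138), the B cell factor APRIL, and Tnfsf12 (612), which codes for TWEAK, were above the level. Tnfsf4 (56.7), the OX40 ligand, and Tnfsf11 (16.8), the osteoclast factor RANKL, were not. Of 9 TNF receptors 4 were above it: Tnfrsf1a (1005), the widely expressed TNF receptor, Tnfrsf14 (299), Tnfrsf11b (273), the decoy of RANKL, and the death receptor Tnfrsf21 (186). Tnfrsf1b, the TNF receptor of leukocytes, had 105. Csf1 (369.8), the growth factor of macrophages, was above it, and Csf2 (64.9), Csf3 (48.0) and the receptor chain Csf2rb were not.

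Between diabetic and normal lung, no member passed the threshold. Of the 36 members that could be tested, 0 had an adjusted p under 0.05 in limma (Benjamini-Hochberg over all 9520 probe sets tested), where 0.168% of all probe sets did, and the smallest adjusted p was 0.155. At an unadjusted p under 0.05 there were 5 of 36 (13.9%), against 16.4% of all probe sets tested. Of these 5, Il16, Cxcr1, Cxcl3 and Il1b had a higher mean in diabetic lung (4 of 36, against 7.75% of all probe sets) and Il18bp had a lower one (1 of 36, against 8.68%). Cxcr1 is counted here although it was tested only because its diabetic signals were higher, as described below. For 0 of the 36 did the groups lie apart without overlap, against 2.04% of all probe sets (0.924% with all diabetic animals higher and 1.11% with all lower). The log2 changes ran from -0.44 to 0.43, with 22 above and 14 below 0, where 47.2% of all probe sets had a change above 0. Their median was 0.03, and that of all probe sets was -0.01. The 95% interval of the change lay within 1 log2 unit of 0, a doubling or a halving, for all 36, and within 1.5-fold for 28. Differences inside these intervals are not excluded with these 12 animals.

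**Figure D2:**
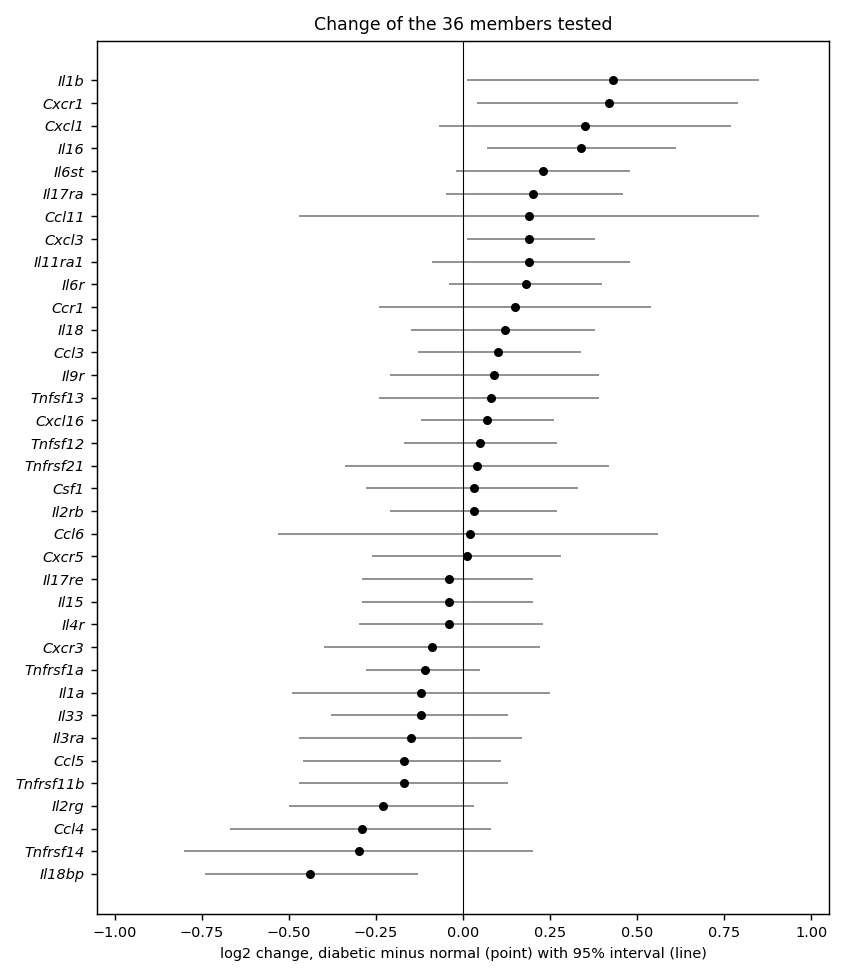
Log2 change in signal, diabetic minus normal, for the 36 members tested (points), with the 95% interval from limma (lines) for 7 diabetic and 5 normal animals. The changes run from -0.44 for Il18bp to 0.43 for Il1b, and every interval lies within 1 log2 unit of 0.

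The smallest p belonged to Il18bp, the secreted decoy that neutralizes Il18. Its signal was 154.5 to 239 with a median of 198.5 in the diabetic animals, against 217.8, 297.3, 219.6, 249.7 and 333.7 in the normal animals. Of the 7 diabetic animals 5 lay below all normal ones, and the other two overlapped the lower end of the normal range. The log2 change was -0.44 (SE 0.14, 95% interval -0.74 to -0.13, adjusted p = 0.155 in limma). Il18 itself had 545.1 to 862 with a median of 606.5 in diabetic lung and 605.7, 606.9, 661.9, 597.4 and 647.9 in normal lung. Its diabetic animals lay on both sides of the normal ones, 3 above all of them and 3 below (log2 change 0.12, SE 0.13, adjusted p = 0.684).

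Il1b, the secreted fever cytokine, had a signal of 384.5 to 1181.3 with a median of 664.9 in diabetic lung, and 518.5, 441.3, 418.8, 545.7 and 450.2 in normal lung. Here 5 diabetic animals lay above all normal ones and diabetic 5 lay below them. The log2 change was 0.43 (SE 0.20, adjusted p = 0.298), and it was 0.28 without diabetic 3, the highest animal, and 0.55 without diabetic 5. Il1a, which signals through the same receptor, had a log2 change of -0.12 (SE 0.17). Il16 had 227.8 to 341.1 with a median of 305.2 in diabetic lung and 256.6, 212.9, 196.6, 202.6 and 288.9 in normal lung. Of its diabetic animals 4 lay above the normal range and none below it (log2 change 0.34, SE 0.13, adjusted p = 0.202).

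The CXC chemokines Cxcl3, Cxcl1 and Cxcl16 could be tested, and none passed. Cxcl3 had 7306.8 to 9753.5 with a median of 8470.5 in diabetic lung and 7001.9, 6885.5, 7713, 7587.5 and 7940.8 in normal lung. The upper 4 diabetic animals were above the normal range, and the change was small (log2 change 0.19, SE 0.09, adjusted p = 0.278). Cxcl1 had 337.6 to 702.5 with a median of 606.7 in diabetic lung, against 378.1, 390.6, 294.2, 559.8 and 653.5 in normal lung (log2 change 0.35, SE 0.20, adjusted p = 0.387, and 0.21 without normal 3, the lowest animal). The groups overlapped over most of their range, and 1 diabetic animal exceeded all normal ones. Cxcl16 had a log2 change of 0.07 (SE 0.09). Ccr1 spread to both sides: it had 229.4 to 512 with a median of 407.6 in diabetic lung and 318.6, 397.7, 371.7, 299.4 and 310.9 in normal lung, with 4 diabetic animals above and 2 below the normal range (log2 change 0.15, SE 0.18, adjusted p = 0.726).

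Cxcr1, a chemokine receptor of neutrophils, had 142.8 to 298.4 with a median of 183.4 in diabetic lung and 160.5, 130.7, 171.3, 134.2 and 129.8 in normal lung. Diabetic 1 and 2, at 251.8 and 298.4, stood above the rest, and 4 diabetic animals exceeded the normal range (log2 change 0.42, SE 0.18, adjusted p = 0.257). Of the 36 members tested, Cxcr1 alone had a mean under 170 in normal lung and above it in diabetic lung, so it was tested only because its diabetic signals were higher, and its change is no support for a difference. Of 10 neutrophil markers 5 had a probe set, none of them at 0: S100a8, S100a9, Lcn2, Fcnb and, below the level, Mmp8. Their summed signal was 3942 to 13826 in diabetic and 5328 to 7019 in normal lung, with the highest sums in diabetic 1, 2 and 3. Lcn2 made up much of it: the other 4 markers summed to 2612 to 6944 in diabetic and 2744 to 4524 in normal lung, with diabetic 1 (4705) and 3 (6944) above the normal range and diabetic 2 (3636) inside it. None of the 4 tested had an unadjusted p under 0.05, which 16.4% of all probe sets had. The part of neutrophils in the Cxcr1 signals was not tested.

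**Figure D3:**
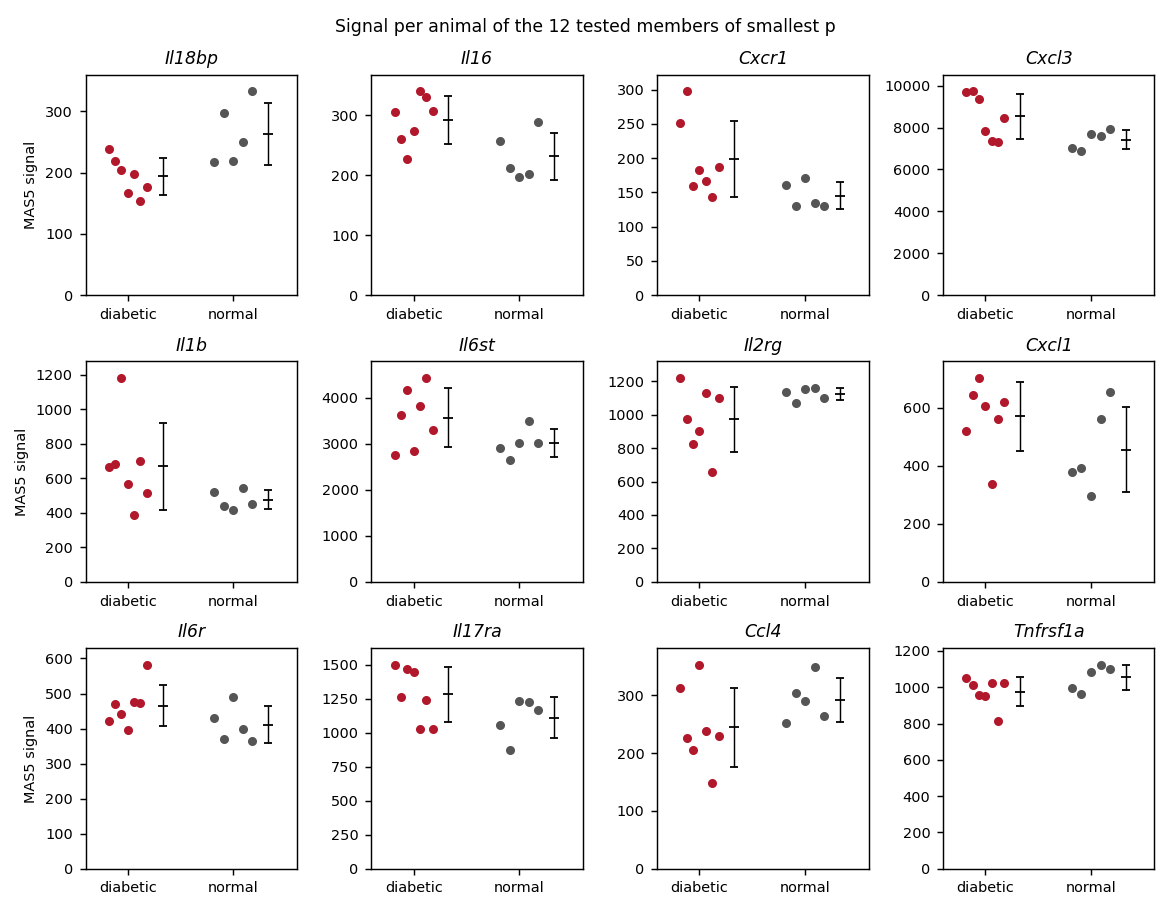
MAS5 signal (linear axes from 0) of the 12 tested members of smallest p in each of 7 diabetic (red) and 5 normal (grey) animals, with mean and SD in black. The groups overlap in every panel, and the diabetic points spread more widely for Il1b (384.5 to 1181.3) than the normal ones (418.8 to 545.7).

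Il6st had the smallest p among the receptors with a higher mean in diabetic lung other than Cxcr1. Its signal was 2749.5 to 4435.6 with a median of 3636.5 in diabetic lung and 2906.5, 2639.4, 3025.5, 3490.2 and 3017.7 in normal lung. The upper 4 diabetic animals exceeded the normal range (log2 change 0.23, SE 0.12, adjusted p = 0.343). The ligand-binding chain Il6r, which pairs with gp130, had a log2 change of 0.18 (SE 0.10, adjusted p = 0.405), and Il11ra1 one of 0.19 (SE 0.13, adjusted p = 0.501). Il17ra had 1025.6 to 1501.5 with a median of 1261.8 in diabetic lung and 1057.4, 870.2, 1231.9, 1223.6 and 1168.4 in normal lung. Of its diabetic animals 5 exceeded the normal range and 2 lay inside it (log2 change 0.20, SE 0.12, adjusted p = 0.408).

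Il2rg had the smallest p after Il18bp among the members with a lower mean in diabetic lung. It had 657 to 1220.2 with a median of 971.8 in diabetic lung and 1132.5, 1071.3, 1152, 1160.4 and 1096.8 in normal lung. The normal animals were within a narrow band, below which 4 diabetic animals lay (log2 change -0.23, SE 0.13, adjusted p = 0.367). Ccl4 had 147.8 to 352.8 with a median of 228.7 in diabetic lung and 251.2, 303, 289.5, 347.9 and 263.7 in normal lung. Of its diabetic animals 5 were below the normal range and 1 was above it (log2 change -0.29, SE 0.18, adjusted p = 0.426). Ccl5 had a log2 change of -0.17 (SE 0.13, adjusted p = 0.543), which was -0.10 without diabetic 6 and -0.11 without diabetic 7. The log2 change was -0.30 for Tnfrsf14, the receptor HVEM (SE 0.24, adjusted p = 0.558), and -0.11 for Tnfrsf1a (SE 0.08, adjusted p = 0.495). Of the 4 TNF receptors tested 3 had a log2 change below 0, and both TNF ligands had one above 0 (Tnfsf13 0.08, SE 0.15, and Tnfsf12 0.05, SE 0.10). Of all probe sets tested 47.2% had a change above 0. The sign turned under some alternative fits for Tnfsf13, Tnfsf12 and the receptor Tnfrsf21.

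The SD of the log2 signal was larger among diabetic than among normal animals for 23 of the 36 members (63.9%), against 53.9% of all probe sets tested, a share not far from that of the members. It was largest for Ccl11, at 0.78 in diabetic and 0.37 in normal lung, followed by Ccl6 (0.63 and 0.33) and Tnfrsf14 (0.60 and 0.18). The signal of Ccl11 was 284.4 to 1093.2 with a median of 764.5 in diabetic lung, against 420.8, 808.8, 482.7, 486.4 and 605.3 in normal lung. The 95% interval of its change, -0.47 to 0.85 on the log2 scale, was the widest of the 36.

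A pattern by animal, described after the values were seen, ran through several members. Diabetic 3 and 6 were the 2 lowest of the 12 animals for 7 of the 36 members (19.4%), against 5.77% of all probe sets tested. Because the animals were picked with these values known, the difference in shares is no support for a pattern. These 7 were Il33, Il2rg, Ccl11, Ccl4, Tnfrsf14, Tnfrsf11b and Cxcr3, by which T cells sense interferon-induced chemokines. For Il33 they had 2537.7 and 2858.2, and the other 10 animals had 3689.7 to 4356.3. For Ccl11 they had 284.4 and 296.6, where no other animal was under 420.8. The same animals were the 2 highest for Il6st (4175.7 and 4435.6) and Il1b (1181.3 and 701.2), 2 of 36 members (5.56%), which is near the 5.26% of all probe sets. Markers of T and natural killer cells, 13 of 15 with a probe set and none at 0, had their 2 lowest sums in these animals as well, at 3599 and 2013, against 4047 to 4641 in the other diabetic and 3824 to 4514 in the normal animals. Not all markers were low in diabetic 3. Its Lck (714), Cd3g (301.8) and Cd3d (146.6), among others, were below the normal range. Its Gzmb (448.2) was above the normal range, and its Prf1 (456.1) and Cd8a (316.6) lay inside it. Diabetic 6 is also the animal that was lowest of all 12 for 17.3% of all probe sets and highest for 17.2%, the largest shares of any animal. Without it, the log2 change was -0.14 for Il2rg, -0.13 for Tnfrsf14 and -0.18 for Ccl4. The part of cell composition in these values was not tested.

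Diabetic 1, 2 and 3 were the 3 highest animals for Cxcl3, Ccl6 and Il18, which is 3 of 36 members (8.33%) and 0.567% of all probe sets tested. These animals too were picked after the values were seen, so the difference in shares is no support for a pattern. Ccl6, a chemokine of rodent macrophages and neutrophils, had 4201.8, 6177.1 and 5026.9 in them. In the other 4 diabetic animals it was 4173, 1828.3, 2437 and 2724.3, and in the normal animals it was 4146.1, 3325.9, 4190.8, 3691.6 and 2379.1. The group means of Ccl6 were close (log2 change 0.02, SE 0.26, adjusted p = 0.982). For Il18 the 3 animals had 857.4, 862 and 801.5, and no other animal exceeded 661.9. The neutrophil sums were 13826, 13394 and 9811 in these animals, and 3942 to 7377 in the other diabetic animals, while without Lcn2 diabetic 2 did not stand above the normal animals. Of the macrophage markers Cd68 had 1376.3 and 1215.5 in diabetic 1 and 2 and 623.8 to 783.8 in the other 10 animals. Summed macrophage markers, 4 of 11 with a probe set and none at 0, were 22354 to 31315 in diabetic and 22586 to 31392 in normal lung, a sum that is mostly Lyz2. Without it the sums were 1657 and 1631 in diabetic 1 and 2, 869 to 1051 in the other diabetic animals and 856 to 1079 in normal lung. That smaller sum is in turn mostly Cd68. Itgam and Mertk lay inside the normal range in diabetic 1 (59.5 and 221.1) and above it in diabetic 2 (160.2 and 255.3). The part of neutrophils and macrophages in these values was not tested.

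**Figure D4:**
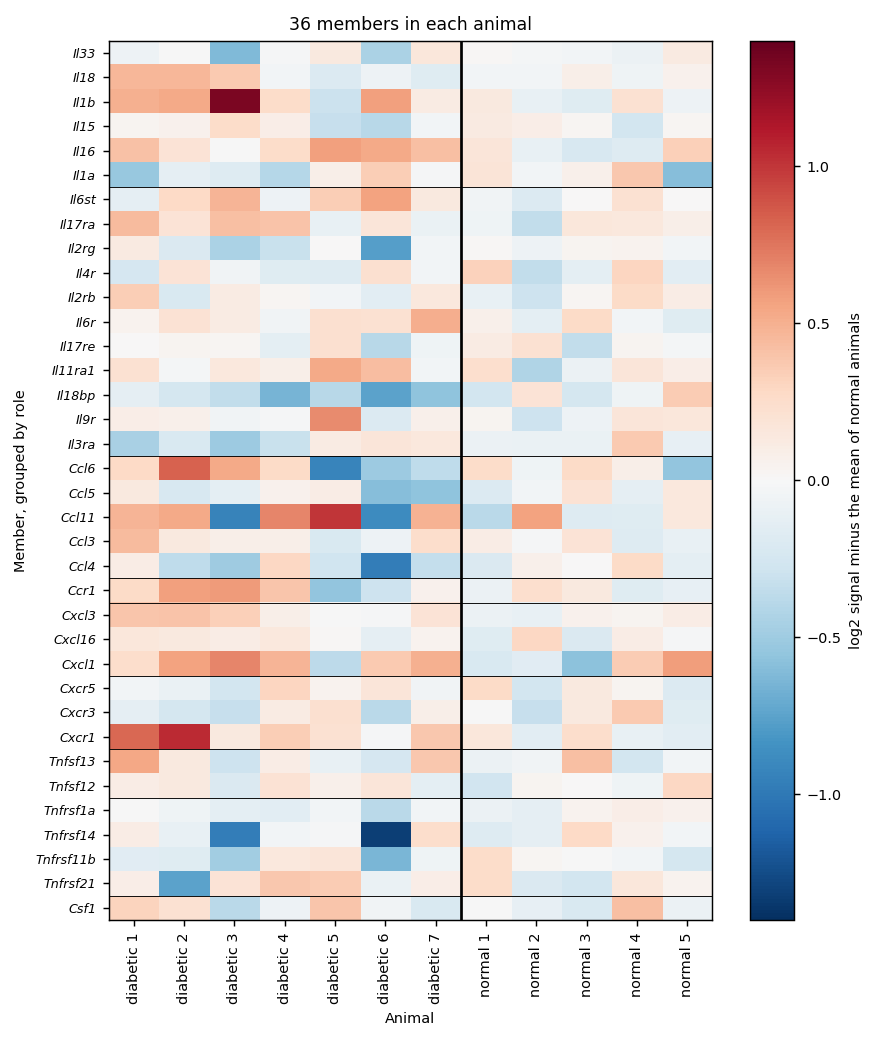
Log2 signal of the 36 members tested (rows, grouped by role) in each of 7 diabetic and 5 normal animals (columns, diabetic on the left), as the difference from the mean of the normal animals (colour scale). Diabetic 3 and 6 are blue for Il33, Ccl11 and Tnfrsf14, and diabetic 1, 2 and 3 are red for Il18, Ccl6 and Cxcl3.

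For 11 members more than 1 probe set named the gene, and for some of them the probe sets differed widely. Of the 4 probe sets of Cxcl3 the one used here, the brightest, had a mean signal of 8021. The other 3 had 112, 88.0 and 59.6, all below the level. The place of Cxcl3 above the level therefore rests on 1 of 4 probe sets. The gene of this probe set comes from the array annotation alone, and whether it detects Cxcl3 or another transcript was not tested, so its level and change are those of the probe set. The probe set at 112 had 81.6 to 267.1 in diabetic and 24 to 190.7 in normal lung. For Il6st all 3 probe sets were above the level, at 3293, 2221 and 2135, and their log2 changes were 0.23 (SE 0.12), 0.33 (SE 0.15) and 0.15 (SE 0.09), with adjusted p of 0.343, 0.268 and 0.414 in limma. Diabetic 3 and 6 had the 2 highest values on each of them. Both probe sets of Il33, at 3703 and 1077, gave a similar change (-0.12, SE 0.12, and -0.09, SE 0.11), with diabetic 3 and 6 lowest on both. For Il1a and Il17re the second probe set lay below the level, at 151 and 152.

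**Figure D5:**
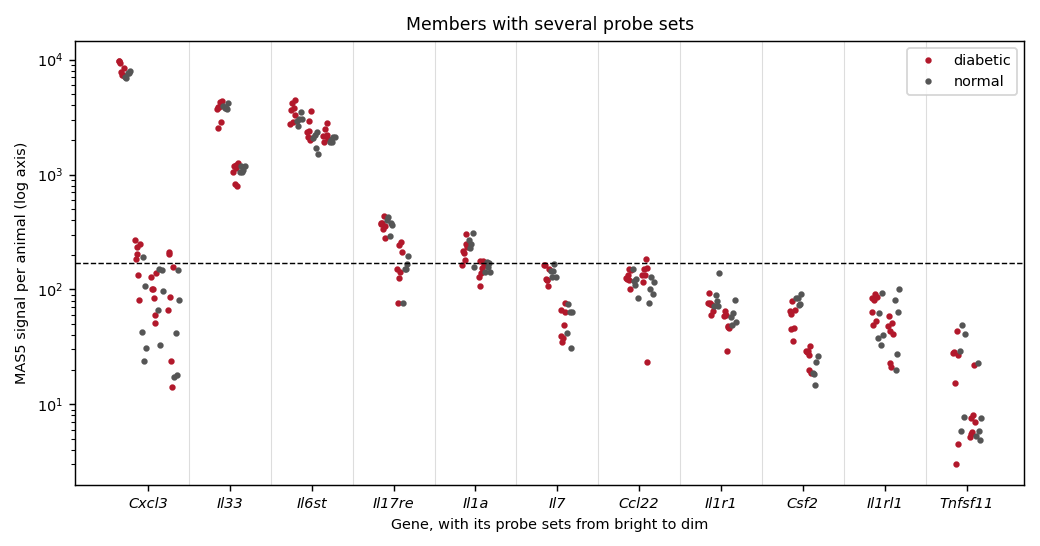
MAS5 signal per animal (log axis) on each probe set of the 11 members with several, from bright to dim within a gene, in 7 diabetic (red) and 5 normal (grey) animals, with the level of 170 as a dashed line. The 4 probe sets of Cxcl3 have mean signals of 8021, 112, 88.0 and 59.6, while all 3 of Il6st, at 3293, 2221 and 2135, lie above the level.

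The 51 members below the level were left out of the test, and 10 of them exceeded 170 in at least 1 animal. For all 51 the groups overlapped. Of the 9520 probe sets tested 2.04% had groups without overlap. That share is not given for the dimmer probe sets, so the overlap is no result about these members. When all 15866 probe sets were tested without a filter, 0 of the 51 passed in limma, where 0.0441% of all probe sets did. An unadjusted p under 0.05 was found for 3 (5.88%), against 12.7% of all probe sets. These 3 were Cxcl13, the B cell attractant (log2 change -0.71, SE 0.21, adjusted p = 0.183), Csf2 (-0.56, SE 0.22, adjusted p = 0.302) and Il23a (1.09, SE 0.43, adjusted p = 0.304). The dimmer probe set of Csf2 went the other way, with a log2 change of 0.38 at a mean signal of 23.2, against 64.9 for the one used. Cxcl13 had 61.1 to 129 with a median of 80 in diabetic lung and 166.6, 120.4, 111.3, 199.9 and 115.4 in normal lung, and 6 diabetic animals lay below all normal ones. Tnfrsf1b had 18.6 to 216.7 with a median of 179.2 in diabetic lung and 82.1, 84.3, 137, 21.5 and 110.2 in normal lung. Of its diabetic animals 6 lay above all normal ones and diabetic 6 lay below them. Both groups thus held animals far apart from each other on this probe set.

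Genes that act beside or downstream of the members were counted as well. Of 24 tested genes of cytokine receptor signalling, 0 passed an adjusted p of 0.05 in limma, while at an unadjusted p under 0.05 Irf1 was higher and Socs5 lower (4.17% each, against 7.75% and 8.68% of all probe sets), and the median log2 change was -0.04. The 4 smallest p belonged to Socs5, a suppressor of cytokine signalling (log2 change -0.31, SE 0.09, adjusted p = 0.123), the interferon regulatory factor Irf1 (0.32, SE 0.15, adjusted p = 0.301), the kinase Tyk2 (0.24, SE 0.12) and the erythropoietin receptor Epor (0.27, SE 0.14). Epor averaged 188 in diabetic and 157 in normal lung, so that, like Cxcr1, it was tested only through its higher diabetic signals. Stat3, which carries the gp130 signal, had a log2 change of -0.02 (SE 0.14) and its inhibitor Socs3 one of 0.17 (SE 0.14). Of 25 tested genes of the NF-kB pathway 0 passed as well, 4 were higher (16%) and 2 lower (8%) by unadjusted p alone, against the same 7.75% and 8.68%, and the median was 0.01. Here Chuk (0.38, SE 0.12, adjusted p = 0.145), Tbk1 (0.23, SE 0.08) and Ikbkb (0.20, SE 0.07), kinases that activate the pathway or its relatives, and the precursor subunit Nfkb2 (-0.30, SE 0.11, adjusted p = 0.186) had the smallest p. Nfkbia, the inhibitor that NF-kB itself induces, had a log2 change of -0.03 (SE 0.16).

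Relatives of the members that carry other symbols were counted too, in a list made with these values known. Of 18 tested, 0 passed in limma, 2 had an unadjusted p under 0.05 with a higher (11.1%, against 7.75%) and 6 with a lower mean in diabetic lung (33.3%, against 8.68%), and the median log2 change was -0.15. Cd40, the TNF receptor by which T cells activate B cells and macrophages, had 147.2 to 248.8 with a median of 214.2 in diabetic lung and 279.5, 305.3, 364.2, 334.6 and 334.8 in normal lung. All 7 diabetic animals were below all 5 normal ones (log2 change -0.69, SE 0.14, adjusted p = 0.0552). Ackr3, a scavenging receptor of Cxcl12, had 1076.2 to 1512.3 with a median of 1283.2 in diabetic lung and 1001, 908.7, 1014.2, 1054.6 and 1005.5 in normal lung. Here all 7 diabetic animals were above the normal ones (log2 change 0.34, SE 0.09, adjusted p = 0.0889). The platelet chemokine Pf4 had a log2 change of -0.49 (SE 0.15, adjusted p = 0.126) and the lymphotoxin receptor Ltbr one of -0.18 (SE 0.07, adjusted p = 0.223). Tnf itself, at a mean signal of 69.3, and Ifng, at 18.6, were below the level of the test. The single B cell marker with a probe set, Cd79b, had a log2 change of -0.82 (SE 0.25, adjusted p = 0.134), and its part in the Cd40 values was not tested.

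The tissue label was borne out by its markers: the surfactant genes Sftpc (24760) and Sftpa1 (21420) and the club cell gene Scgb1a1 (21504) had high mean signals, and the liver and muscle genes Alb (79.3), Apoa1 (6.43), Ckm (140.0) and Myh7 (8.87) lay below the level. The median signal of an array was 253 to 266 in diabetic and 259.6 to 272.0 in normal lung (exact permutation test over the 792 splits, two-sided, p = 0.120). The ratio of 3′ over 5′ signal of GAPDH, a measure of RNA quality, averaged 1.15 ± 0.0710 in the diabetic and 1.32 ± 0.0778 in the normal animals (SD, n = 7 and 5, exact permutation test, two-sided, p = 0.00505). That of beta-actin averaged 2.08 ± 0.372 in the diabetic and 2.06 ± 0.437 in the normal animals (exact permutation test, two-sided, p = 0.920). The part of RNA quality in the changes above was not tested. Among the marker lists of lung cells, the sums for fibroblasts did not overlap between the groups. All 8 of these genes had a probe set above the level, and their summed signal was 12846 to 19274 in diabetic and 20846 to 23112 in normal lung, lowest in diabetic 6. The separation rests on Col3a1, without which the sums overlapped, at 11189.8 to 13182 in diabetic and 11603 to 14616 in normal lung. In limma 0 of the 8 passed an adjusted p of 0.05, where 0.168% of all probe sets did. At an unadjusted p under 0.05, 1 was higher and 5 were lower, against 7.75% and 8.68% of all probe sets. The collagen genes Col1a1 (log2 change -1.06, SE 0.25), Col3a1 (-0.97, SE 0.25) and Col1a2 (-0.94, SE 0.25) were among the lower. Pdgfra was higher (0.58, SE 0.12, adjusted p = 0.0552 in limma). Dcn (0.19, SE 0.21) and Tcf21 (0.15, SE 0.12) had changes above 0. Fibroblasts are among the sources of Ccl11, Il33 and Tnfrsf11b, and their part in those values was not tested.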

How the data were processed

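Lung RNA of 7 diabetic and 5 normal rats was measured on 1 array per animal. The authors computed 1 MAS5 signal per probe set, and the deposited values are an intensity on a linear scale, scaled so that the mean of each array without the lowest and highest 2% lay between 499.8 and 499.9. Of 15923 probe sets, 57 Affymetrix controls were left out. Signals were transformed to log2, with 1 value at or below 0 set to 0.1. Probe sets in the lowest 40% by mean log2 over all animals were left out, and 9520 were tested in R 4.3.3 with limma 3.58.1 (intensity trend, two-sided, Benjamini-Hochberg, threshold 0.05). The test was checked on simulated data with independent probe sets and with added changes larger than those of the members. This check does not cover changes as small as theirs. BAMarray and the present calls of the study were not used here. Names came from the platform annotation, with symbols looked up by Entrez ID, and 312 probe sets naming several genes were used for no member.

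The members and gene lists were chosen with earlier results of these data known. The text names members by smallest p, highest signal overall and per role, nearness to 170 and spread, beside the helper T cell cytokines, some receptors and second probe sets, chosen after their values were seen. Other genes are up to 4 of smallest p per list, with Stat3, Socs3, Nfkbia, Tnf and Ifng added. Alternatives changed the filter, scaling, variance model, array weights, thresholds, probe sets and animals, added a pseudocount of 64 or took the replicate number as a block. Python 3.11.15 and matplotlib 3.10.9 drew the figures. Marker sums without their dominant gene were added after the values were seen. The number of arrays limits the precision.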

Additional observations from a re-analysis of the deposited data

Results flagged for a closer look

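Of the 35 members named by rule, each looked at in both groups, 5 had 1 animal far from its group, where chance alone gives about 1 in 20 groups (70 groups in all). Il1b had a signal of 1181.3 in diabetic 3, with the next diabetic animal at 701.2. Tnfrsf1a had 812.7 in diabetic 6, below the next at 951.8, and Ccr2 had 17.2 in the same animal, below the next at 69.2. In normal lung Tnfsf13 had 1474.6 in animal 3, with the next at 1075.7, and Csf1 had 491 in animal 4, with the next at 362.9.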

How the results depend on the processing

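No alternative brought a member past an adjusted p of 0.05 in limma. The fit reported has 5 of 36 members at an unadjusted p under 0.05, against 16.4% of all probe sets tested. That number was 6 with median-centred arrays, array weights or the replicate block, 4 with quantile normalization and 3 without an intensity trend. It was 2 to 8 without single animals. Without a filter it was 7 of 87 members, 3 of them among the 51 below the level, against 12.7% of all probe sets. With the lowest 60% left out, where fewer members were tested, it was 2. The share of all probe sets is not given for the remaining settings, so these counts are no result about the members. Leaving out 1 animal moved the change of 21 of the 27 named members by over 1.5 times or turned it; with the replicate block that of Ccl5 was -0.01, and with array weights that of Cxcl1 was 0.53. For the 27 tested members named by rule, 529 alternative fits gave an adjusted p of 0.129 or more. The sign of the change held under all of them for 21 members and turned for Ccl6, Csf1, Cxcr5, Tnfrsf21, Tnfsf12 and Tnfsf13, whose changes were 0.01 to 0.08. The number of members above the level was 36, 35 to 36 without single animals and 23 at a level of 340. The median log2 change of the members was 0.03, and 0.01 to 0.06 without single animals. The number of probe sets past the threshold, 16, was less stable. It was 25 with quantile normalization, 7 without a filter, 32 with the lowest 60% left out, 9 without an intensity trend, 80 with array weights, 196 at an adjusted p under 0.10 and 1564 at an unadjusted p under 0.05. Without single animals it was 2 to 30: 2 if normal 2 or 4 was left out, 9 for normal 1 and 8 for normal 5, and likewise 8 for diabetic 1, 6 for diabetic 2 or 3, 5 for diabetic 4, 27 for diabetic 5 and 30 for diabetic 6. The cause was not tested. The replicate numbers were taken only as names of the animals. The deviations of same-numbered animals correlated at -0.123 to 0.0384, and shared handling of such animals was not tested. With the replicate number as a block 11 probe sets passed, 7 of them shared with the fit without it, 0 members passed, and the median change of the members was 0.07. The 12 animals limit what could be seen: a member's change had a standard error of 0.08 to 0.31.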
